A study of Mus musculus with 2 samples.

Results

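The genes described here are the axon guidance genes of the Eph, ephrin, Slit, Robo and netrin systems of the mouse. They were chosen by gene symbol: the Eph receptor genes (Epha and Ephb), the ephrin genes (Efna and Efnb), Slit1 to Slit3, Robo1 to Robo4, Unc5a to Unc5d, Dcc, the netrin genes (Ntn) and the netrin-G genes Ntng1 and Ntng2. The symbols matched 40 of the 55536 annotated genes, 9 EphA receptors, 5 EphB receptors, 5 ephrin-A ligands, 3 ephrin-B ligands, 3 Slits, 4 Robos, 4 netrins, 5 genes of the Unc5 and Dcc receptors and 2 netrin-G genes.

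The RNA came from left cerebral cortex of adult B6NCrl mice at 6 months, with no treatment or altered allele in the labels. A description field calls the source C57BL/6 male, while the field for sex holds no answer. Polyadenylated RNA, from 20 ng of input, was made into libraries by Nextera tagmentation, the cutting and tagging of cDNA by a transposase. There was 1 group with 2 libraries, labelled biological replicates 1 and 2, with separate biosample records under the same donor entry. The spread between them may therefore be technical, and no condition could be compared. Depth was 51888490 gene fragments for replicate 1 and 26776276 for replicate 2, and the guidance genes took 0.101% and 0.0840% of them.

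Guidance molecules steer growing axons: a ligand on a neighbouring cell or in the matrix binds a receptor on the growth cone and turns the cytoskeleton toward advance or collapse. Ephrins stay on the membrane, by a lipid anchor in the A class and a transmembrane stretch in the B class, and bind Eph receptor tyrosine kinases; the ephrins can also signal backward into their own cell. Slits are secreted and repel axons through Robo receptors, while secreted netrins attract through Dcc and repel through Unc5 receptors. In the adult cortex several of these molecules are known at synapses, on astrocytes and on vessels.

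The tissue label was checked against markers. TPM, the unit used for levels, counts transcripts scaled to the same total in each library. It is per length, so levels were set side by side between genes. The part of base composition in such orders and ratios of levels was not tested. A gene was detected where neither library was under 1 TPM. All 6 genes of cortical projection neurons were detected, with a summed level of 180 TPM in replicate 1 and 116 in replicate 2. All 3 markers of GABAergic neurons (152 and 211 TPM summed), all 4 of astrocytes (1421 and 1772), all 4 of oligodendrocytes (2956 and 3165) and all 4 of microglia (272 and 263) were detected too. So were all 3 of oligodendrocyte precursors (63.0 and 54.9 TPM), mural cells (60.5 and 59.9) and meningeal fibroblasts (19.96 and 20.25). Of the 4 endothelial markers 3 were detected (list sums 113 and 149 TPM), and of the 3 choroid plexus markers 2 (58.9 and 45.2). Genes listed as markers of other regions were detected as well, which does not show that RNA of those regions was present. All 4 striatal markers were, with sums of 238 and 218 TPM: Ppp1r1b at 197 and 169, Adora2a at 24.6 and 33.6 (higher in replicate 2, log2 ratio 0.64), Drd1 at 11.3 and 10.9 and Drd2 at 4.68 and 4.41. Of the 3 thalamic markers 2 were, Tcf7l2 at 47.4 and 44.6 TPM and Tnnt1 at 5.84 and 7.03, with Gbx2 at 0.10 and 0.04. Of the 3 cerebellar markers 2 were, Calb2 at 13.0 and 4.61 TPM and Cbln1 at 1.5 and 1.01, with Barhl1 at 0.02 and 0. Whether these transcripts came from cells of the cortex or of other regions was not tested. The part of such other regions in the levels was not tested either. The RNA is a mixture of these cells, and in such bulk tissue fewer cells of a type and less RNA per cell cannot be told apart.

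Most of the guidance genes were detected in adult cortex. Of the 40, 29 reached 1 TPM in both libraries, beside 24.8% of all gene rows and 56.7% of protein coding genes. Their summed level was 417 TPM in replicate 1 and 316 in replicate 2 (366 ± 71.1, mean ± SD, n = 2 libraries). EphA receptors had the highest family sum at 98.1 ± 7.62 TPM, followed by EphB receptors at 64.0 ± 7.62 and ephrin-A ligands at 57.9 ± 8.04. The order of the latter families turned with the quantification: ephrin-A stood above EphB in the second transcript tables (45.3 and 37.8 TPM) and over complete coding transcripts alone (57.9 and 42.6), an alternative chosen after the data were seen. In replicate 1 the Unc5 and Dcc receptors, at 71.9 TPM, were also above the EphB receptors at 69.4. The netrins had the lowest sum at 10.5 ± 4.41 TPM. In the plot of levels by family, each family runs from its highest gene down to its lowest, and the first gene of a family carried much of its sum.

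**Figure D1:**
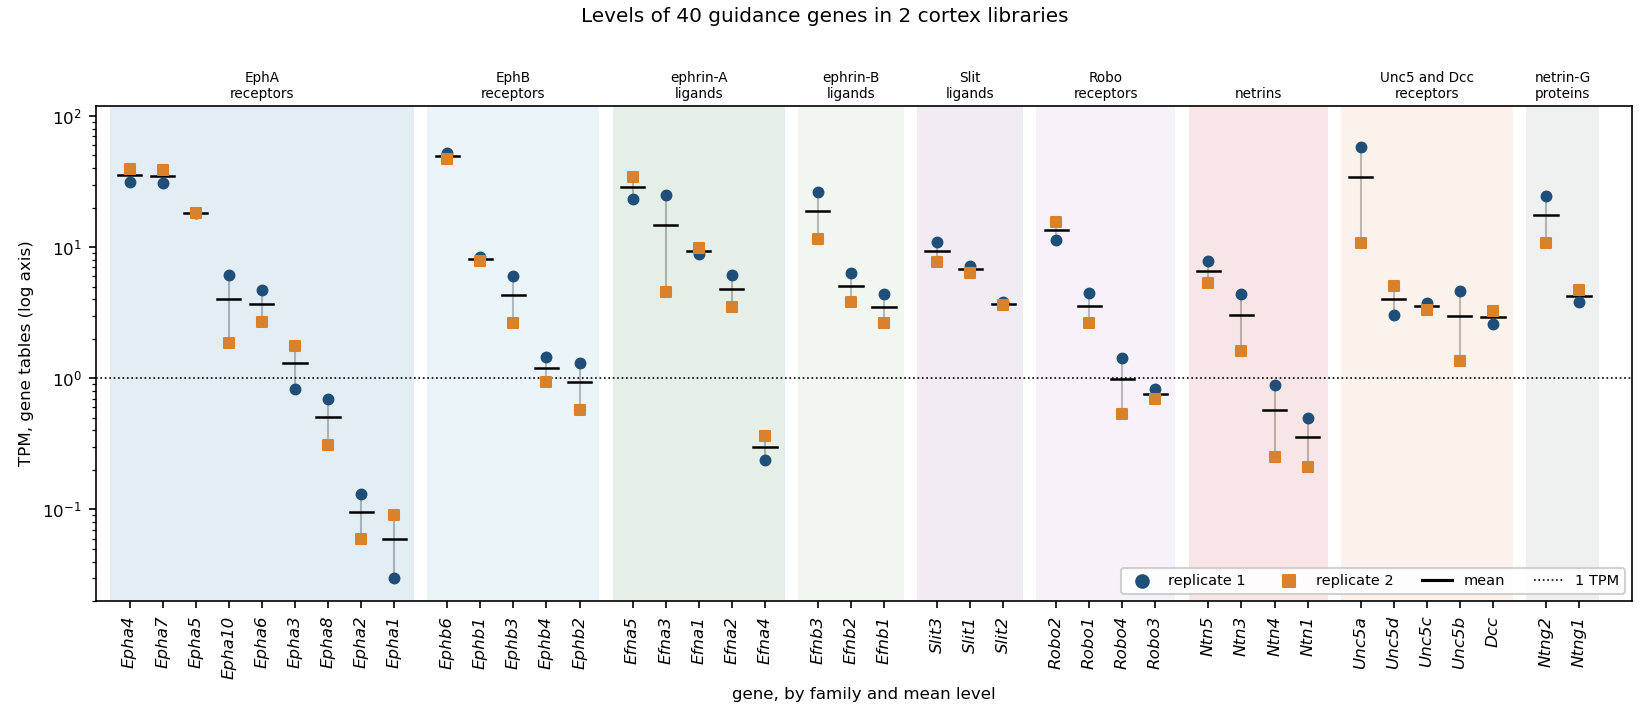
Level of each of the 40 guidance genes in TPM (log axis) in cortex replicate 1 (circles) and replicate 2 (squares), with the mean of the libraries as a bar, ordered by mean within each family; the dotted line marks 1 TPM. Ephb6, Epha4, Epha7 and Unc5a have the highest means, and the points of Unc5a and Efna3 lie furthest apart among genes above 10 TPM.

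Among ephrin-A ligands, Efna5, which patterns topographic maps in the developing brain, had 23.4 TPM in replicate 1 and 34.1 in replicate 2. Efna3, an ephrin known on astrocytes and neurons, had 24.9 and 4.53 TPM, and its range overlapped both that of Efna5 above it and that of Efna1 below it. Efna1, an ephrin known in endothelium, stood at 8.85 and 9.79 TPM. Efna3 was thus level with Efna5 in replicate 1 and below Efna1 in replicate 2. Efna2 lay lower at 6.18 and 3.47 TPM, and Efna4 was barely present at 0.24 and 0.36 TPM.

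The ephrin-B ligands were led by Efnb3, known from midline and synaptic signalling, at 26.5 and 11.5 TPM, above Efnb2 in both libraries. Efnb2, which also marks arteries, had 6.30 and 3.82 TPM. Efnb1 had 4.36 and 2.64 TPM, below Efnb2 within each library, though the ranges over libraries overlapped in the gene tables. In the second tables they did not, with the lower Efnb2 value at 3.67 TPM and the higher Efnb1 value at 3.38. All 3 ephrin-B genes had their lower value in replicate 2.

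EphA receptors ran from a mean of 35.4 TPM for Epha4 to 0.06 for Epha1. Epha4, a receptor that binds ephrins of both classes, had 31.2 TPM in replicate 1 and 39.6 in replicate 2 (chr1:77367185-77515088, mm10). Epha7 had 30.6 and 38.9 TPM (chr4:28813131-28967499), a range that overlapped that of Epha4. Epha5 followed at 18.3 TPM in both libraries, below Epha7 and above all other EphA genes. These 3 genes made up most of the EphA sum in each library.

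The remaining EphA receptors were low. Epha10, a receptor without kinase activity, had 6.18 and 1.86 TPM, and Epha6 had 4.73 and 2.70, with overlapping ranges. Epha3 had 0.83 and 1.77 TPM, with its higher value in replicate 2. Epha8 had 0.70 and 0.31 TPM. The lowest were Epha2, known in epithelia, at 0.13 and 0.06, and Epha1 at 0.03 and 0.09, with 2.04 and 3 expected fragments. Epha1 overlaps Zyx on the opposite strand, and without stated use of strand its few fragments are uncertain.

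Among EphB receptors a member without kinase activity was the highest. Ephb6, whose kinase domain is inactive, had 52.1 and 46.6 TPM (chr6:41605482-41620509) and carried 75.1% and 79.6% of the EphB sum. Ephb1 had 8.48 and 7.81 TPM and Ephb3 had 6.02 and 2.65, each apart from its neighbours in the order. Ephb4, the partner of Efnb2 in veins, had 1.45 and 0.94 TPM. Ephb2, a receptor at developing synapses, had 1.30 and 0.57, a range that overlapped that of Ephb4. Summed ephrin-A level over summed EphA level was 0.686 in replicate 1 and 0.505 in replicate 2, and ephrin-B over EphB was 0.535 and 0.306, so ligand transcripts were fewer than receptor transcripts for both classes in each library of the gene tables. Over complete coding transcripts this turned for the A class in replicate 1, with 63.6 TPM of ephrin-A against 55.1 of EphA, and not in replicate 2, with 52.2 against 75.4.

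All 3 Slits were detected, in an order that did not overlap in the gene tables, while Slit1 and Slit3 overlapped over complete coding transcripts. Slit3 had 10.97 and 7.71 TPM, Slit1, the Slit most restricted to neurons, had 7.24 and 6.37, and Slit2 had 3.81 and 3.62. Robo2, a neuronal Slit receptor, led the receptors at 11.3 and 15.5 TPM and Robo1 followed at 4.49 and 2.63, or 1.61 and 0.72 over complete coding transcripts, where its range overlapped that of Robo4. Robo4, the endothelial member, had 1.43 and 0.53 TPM, and Robo3, known from commissural neurons, had 0.83 and 0.70, with overlapping ranges. Slit over Robo was 1.22 in replicate 1 and 0.912 in replicate 2, so which sum was larger differed between the libraries. Over complete coding transcripts the Slits were above the Robos in both, 16.3 against 10.2 TPM and 13.2 against 10.4.

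Among secreted netrins Ntn5 was the highest at 7.79 and 5.29 TPM, above Ntn3 at 4.42 and 1.61. In both libraries of the gene tables Ntn5 was also above every netrin receptor gene of this list except Unc5a. In the second transcript tables of replicate 2, Ntn5 was at 4.03 TPM, below Unc5d at 4.52. Ntn4, a netrin of basement membranes, had 0.89 and 0.25 TPM, and Ntn1, the classical chemoattractant, had 0.50 and 0.21, with 113 and 24 fragments. Neither Ntn4 nor Ntn1 reached 1 TPM in either library. Ntn3 overlaps Tbc1d24 on the same strand, which had a mean of 11.2 TPM, so the share of its fragments that belongs to Ntn3 is uncertain.

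Unc5a was the receptor gene that differed most between the libraries. It had 57.9 TPM in replicate 1, the highest level of any guidance gene in that library, and 10.8 TPM in replicate 2 (chr13:54949411-55006018), from 7215 and 818 fragments. Even the lower value was above all other Unc5 genes and Dcc. Unc5d, known in upper cortical layers, had 3.03 and 5.08 TPM, Unc5c had 3.77 and 3.34, and Unc5b, known in vessels, had 4.62 and 1.36. Dcc, the attractive netrin receptor, had 2.61 and 3.27 TPM, and the ranges of these 4 neighbours overlapped in the order of means. Summed netrins over summed Unc5 and Dcc receptors gave 0.189 and 0.309.

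Netrin-G proteins are tied to the membrane by a lipid anchor and bind the synaptic proteins Lrrc4c and Lrrc4 instead of Dcc. Ntng2 had 24.4 and 10.8 TPM, above Ntng1 at 3.80 and 4.75 in both libraries. Ntng2 overlaps the noncoding gene 6530402F18Rik on the same strand, at a mean of 3.94 TPM. Over complete coding transcripts the order of the pair turned in replicate 2, with 4.25 TPM for Ntng2 and 4.61 for Ntng1. Over all families, 19 of 31 pairs of neighbours in the order of means had ranges that did not overlap.

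Which transcript carried these levels was examined in the 15 members with a mean of at least 5 TPM and 2 or more annotated transcripts. For 13 of them the transcript with the highest mean percent of the gene was annotated as coding and complete, and for 14 the leading transcript was the same in both libraries and in both transcript quantifications. The exception was Epha5. There the retained intron transcript Epha5-207 (2246 bases) led in replicate 1 with 38.5% against 29.0% for the coding Epha5-204, and in replicate 2 Epha5-204 led with 46.5% against 17.6%. The plot of transcript classes shows Efna3, Efna1, Efna5 and Ntn5 as wholly or almost wholly complete coding, and Epha4, Epha7, Epha5, Ephb6, Slit3, Robo2 and Ntng2 with other classes in both libraries.

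**Figure D2:**
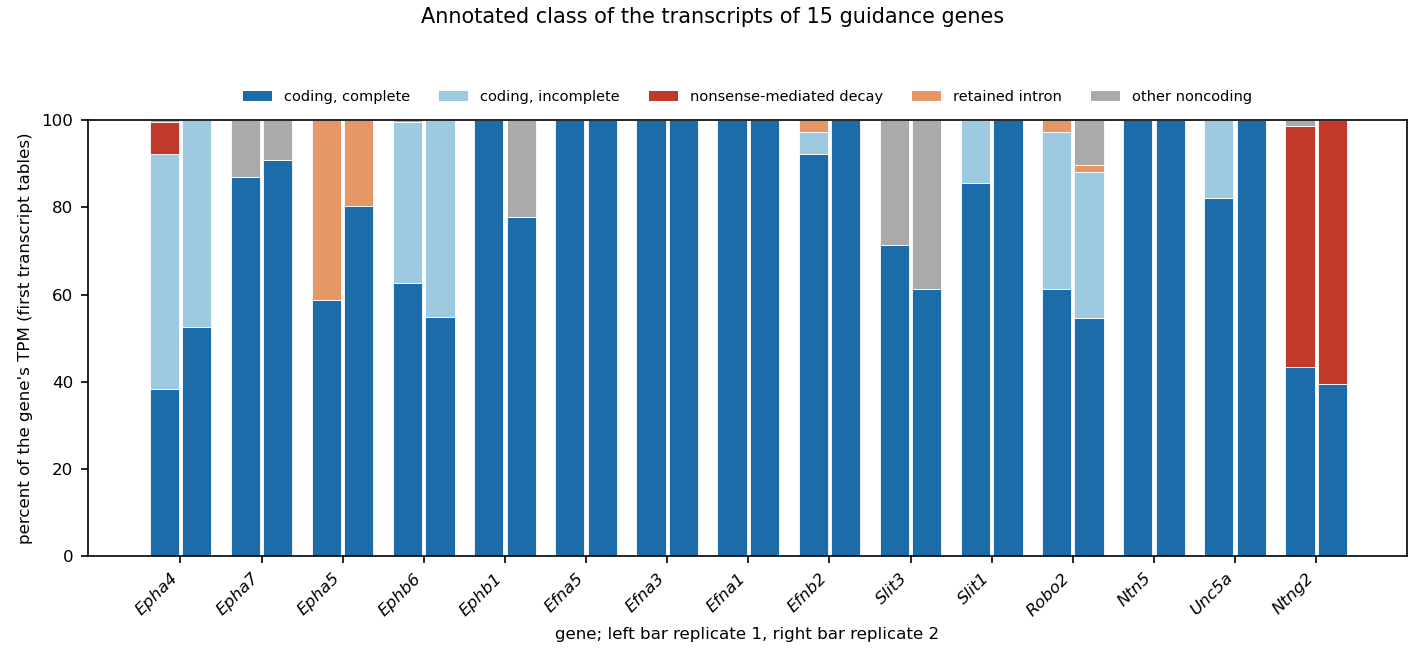
Percent of each gene's TPM in annotated transcript classes, from the first transcript tables, for 15 guidance genes with a mean of at least 5 TPM; the left bar of each pair is replicate 1 and the right bar replicate 2. Nonsense-mediated decay transcripts hold the largest share of Ntng2, whose leading transcript took 55.3% and 60.5%, and incomplete coding models hold much of Epha4 and Ephb6.

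Epha7 was mainly expressed as a short form. Epha7-202, a complete model of 2880 bases and 610 codons, took 73.7% and 74.5% of the gene, while Epha7-201, of 6746 bases and 998 codons, took 8.01% and 13.7%. In TPM these were 22.6 and 29.0 against 2.45 and 5.33. The second quantification gave 77.0% and 73.8% for the short form. Truncated EphA7 proteins that lack the kinase domain are known as background. The models share 1798 coding bases, after which the short form has 35 further coding bases, its TAA stop included. The last 45 shared bases in lower case and the next 35 in capitals are shown for both, read from GENCODE M21 transcripts on mm10, plus strand, within chr4:28943334-28946253 for the short form and chr4:28943334-28947562 for the long form, across a splice junction.
Epha7-202: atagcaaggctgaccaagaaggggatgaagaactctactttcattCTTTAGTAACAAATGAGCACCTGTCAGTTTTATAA
Epha7-201: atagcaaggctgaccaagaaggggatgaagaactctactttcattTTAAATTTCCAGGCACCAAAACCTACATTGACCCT
The capitals differ from the first base after the junction and end in the stop codon in the short form.

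The leading form of Unc5a was one without an exon. Unc5a-202 took 65.3% and 89.4% of the gene, and Unc5a-201, which differs in coding by an extra exon of 168 bases (56 codons, in frame; chr13:54997193-54997360, plus strand), took 16.9% and 10.6%. Of these forms together, Unc5a-201 held 20.6% in replicate 1 and 10.7% in replicate 2, and 25.6% and 8.70% in the second quantification. Of the whole gene, Unc5a-202 took 49.3% and 91.3% in the second quantification. In replicate 1 an incomplete model of 501 bases, Unc5a-203, took another 17.8%, or 33.7% by the second quantification, and it was at 0 in replicate 2 in both. Whether Unc5a-203 holds the exon was not tested. The exon is shown in capitals with its flanking coding bases in lower case, from GENCODE M21.
Unc5a-201: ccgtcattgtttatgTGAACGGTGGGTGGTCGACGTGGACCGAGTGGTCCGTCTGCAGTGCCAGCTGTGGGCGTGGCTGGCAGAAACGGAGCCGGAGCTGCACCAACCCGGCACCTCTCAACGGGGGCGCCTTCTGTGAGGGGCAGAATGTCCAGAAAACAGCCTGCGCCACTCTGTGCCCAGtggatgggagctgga
In Unc5a-202 the lower case stretches on either side follow each other directly.

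Ntng2 was the only one of the 15 whose leading transcript was annotated for nonsense-mediated decay. Ntng2-211, of 1957 bases, took 55.3% and 60.5%, and the complete coding Ntng2-204, of 1593 bases, took 41.2% and 34.4%. The order was the same in the second quantification, with 60.7% and 63.8% for Ntng2-211. Ntng2-211 has 26 bases in place of a 27-base exon of Ntng2-204, which shifts the reading frame to a TGA stop. The bases that differ are in capitals in the coding sequence of each, from GENCODE M21, minus strand, within chr2:29197116-29207447 and chr2:29197117-29207447.
Ntng2-211: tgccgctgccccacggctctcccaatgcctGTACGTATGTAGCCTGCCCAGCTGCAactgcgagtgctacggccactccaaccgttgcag
Ntng2-204: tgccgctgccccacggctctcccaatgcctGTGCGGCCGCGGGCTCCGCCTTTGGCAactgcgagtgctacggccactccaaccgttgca
The lower case bases on either side of the capitals are the same in both.

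Other members turned on short or incomplete models. Epha4-203, a model of 614 bases with no annotated start, took 53.9% and 47.5% of Epha4, and the complete Epha4-201, of 6328 bases, took 36.1% and 43.3%. For Ephb6 the incomplete Ephb6-203, of 459 bases, took 37.0% and 45.2%, but 13.6% and 29.9% in the second quantification. Slit3-202, a noncoding transcript of 1218 bases, took 24.4% and 36.7% of Slit3. Robo2 was split among many models, its first, Robo2-202, with 35.8% and 36.9%.

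The levels of several members rested on those models. Over complete coding transcripts alone, Epha4 had a mean of 16.4 ± 6.19 TPM, and the libraries gave Ephb6 32.7 and 25.6, Ntng2 10.6 and 4.25, and Epha10 1.75 and 0.43. Epha7, at 26.7 and 35.3 TPM, then stood above Epha4 in the EphA family. In the second quantification Ephb6 had 27.1 and 27.7 TPM and Ntng1 7.36 and 7.33. For Ntng1 the single-exon model Ntng1-201, of 327 bases, took 60.2% and 46.3% there and 0 in the first transcript tables. The plot of quantifications shows that most members lay below the line of equal levels in the second tables, and that Epha2, Ntn1 and Ntng1 lay above it.

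**Figure D3:**
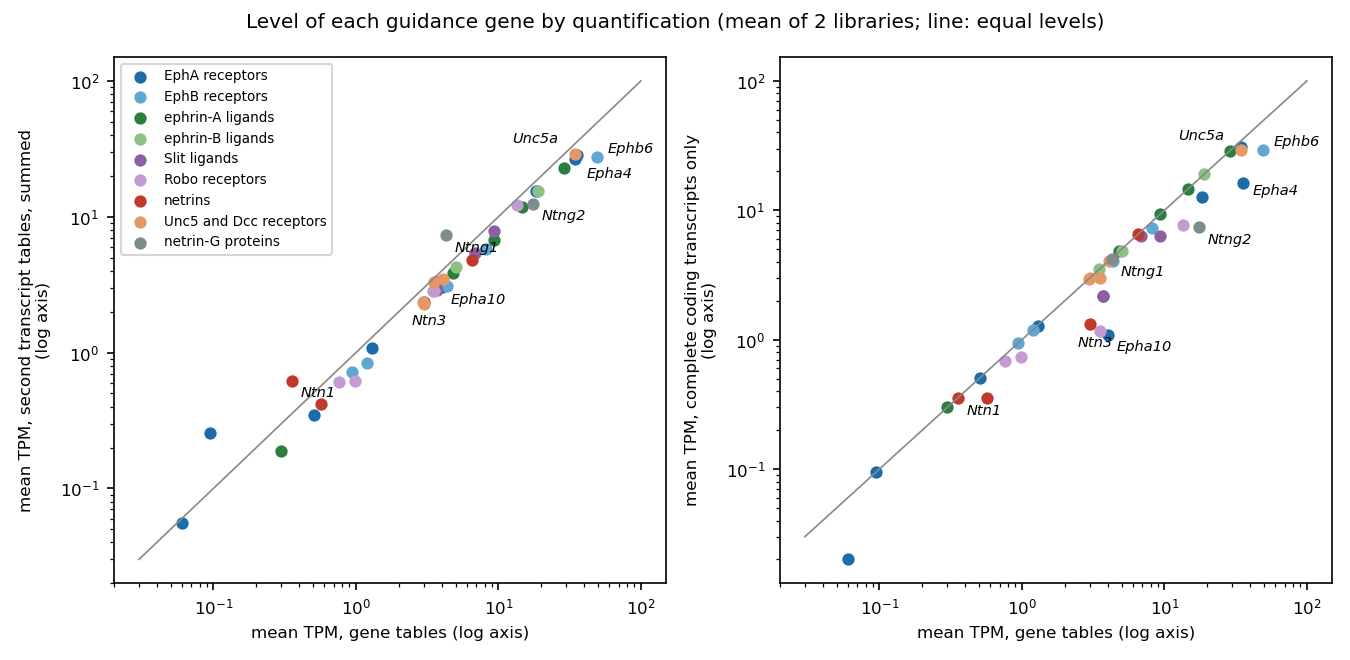
Mean TPM of each guidance gene over the 2 libraries in the gene tables (x) against the summed second transcript tables (left, y) and against complete coding transcripts of the first transcript tables (right, y), on log axes; the line marks equal levels. Ephb6 lies below the line in both panels, Ntng1 above it on the left, and Epha4, Ntng2, Epha10 and Ntn3 below it on the right.

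The libraries were then set against each other gene by gene. A gene was called apart when an exact two-sided binomial test on fragments, adjusted over all genes by Benjamini-Hochberg, passed 0.05 and the ratio was at least 1.5-fold, at a mean of at least 1 CPM (fragments scaled to library size). The comparison is of these libraries and not of conditions, it covers counting error only, and it has no replicate check. Its ratios are of scaled fragments, which are not per length, and can differ from ratios of TPM. Of 37 guidance genes tested, 21 were apart, beside 20.5% of the 14656 genes tested. Of these, 2 were higher in replicate 2, beside 3.22% of all genes, and 19 were lower, beside 17.2%. By the adjusted p alone 32 of the 37 passed, 8 higher (26.2% of all genes) and 24 lower (36.4%), beside 62.6% of all genes. The median log2 ratio of replicate 2 over replicate 1 was -0.64 over the 37 and -0.03 over all genes tested.

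The genes lower in replicate 2 came from every family. Efna3 had the lowest log2 ratio, -2.37 (95% Clopper-Pearson interval -2.57 to -2.17; 1994 and 207 fragments). Unc5a was at -2.30 (-2.40 to -2.19), Epha10 at -1.74 (-1.97 to -1.51) and Unc5b at -1.64 (-1.88 to -1.42). Each of these intervals lay wholly beyond a 1.5-fold decrease. All 4 netrins were lower, Ntn3 at -1.59, Ntn1 at -1.03, Ntn4 at -0.76 and Ntn5 at -0.64. With a pseudocount of 2 CPM in place of 0.5, Ntn1 (-0.58), Ntn4 (-0.38) and Ntn5 (-0.53) were no longer called, nor was Ntn5 under total-count scaling (-0.52). All 3 ephrin-B ligands were lower as well, Efnb3 at -1.33 (-1.44 to -1.21), Efnb1 at -0.81 and Efnb2 at -0.76.

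Among receptors, Ephb3 was lower at -1.30, Ephb2 at -1.08, Ephb4 at -0.72, Epha8 at -1.004 and the endothelial Robo4 at -1.17. Ntng2 was at -1.24 (-1.40 to -1.08), Efna2 at -0.89 and Slit3 at -0.78. The 2 genes higher in replicate 2 were Epha3 at 0.79 (0.51 to 1.07) and Unc5d at 0.66 (0.53 to 0.79). The highest EphA and ephrin-A genes differed by less than 1.5-fold: Epha4 at 0.41, Epha7 at 0.32, Epha5 at 0.09 and Efna5 at 0.40. Also within 1.5-fold were Ephb6 at -0.45, Ephb1 and Epha6 at -0.48 each, Robo1 at -0.57, Robo2 at 0.21, Slit2 at -0.24, Dcc at 0.20, Ntng1 at 0.21 and Efna1 at 0.04. Unc5c lay at -0.03, but at 0.10 under total-count scaling, and Slit1 and Robo3 lay at -0.14 and -0.22, but at 0.22 and 0.11 once the GC and length trends were taken out. The plot of ratios shows the lower genes as a long tail. Total-count scaling moved the median of all genes from -0.03 to 0.09 and that of the guidance genes to -0.52. It left 2 members higher and 18 lower. Over all genes 830 (5.67%) were then higher and 2065 (14.1%) lower, in place of 472 and 2528.

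**Figure D4:**
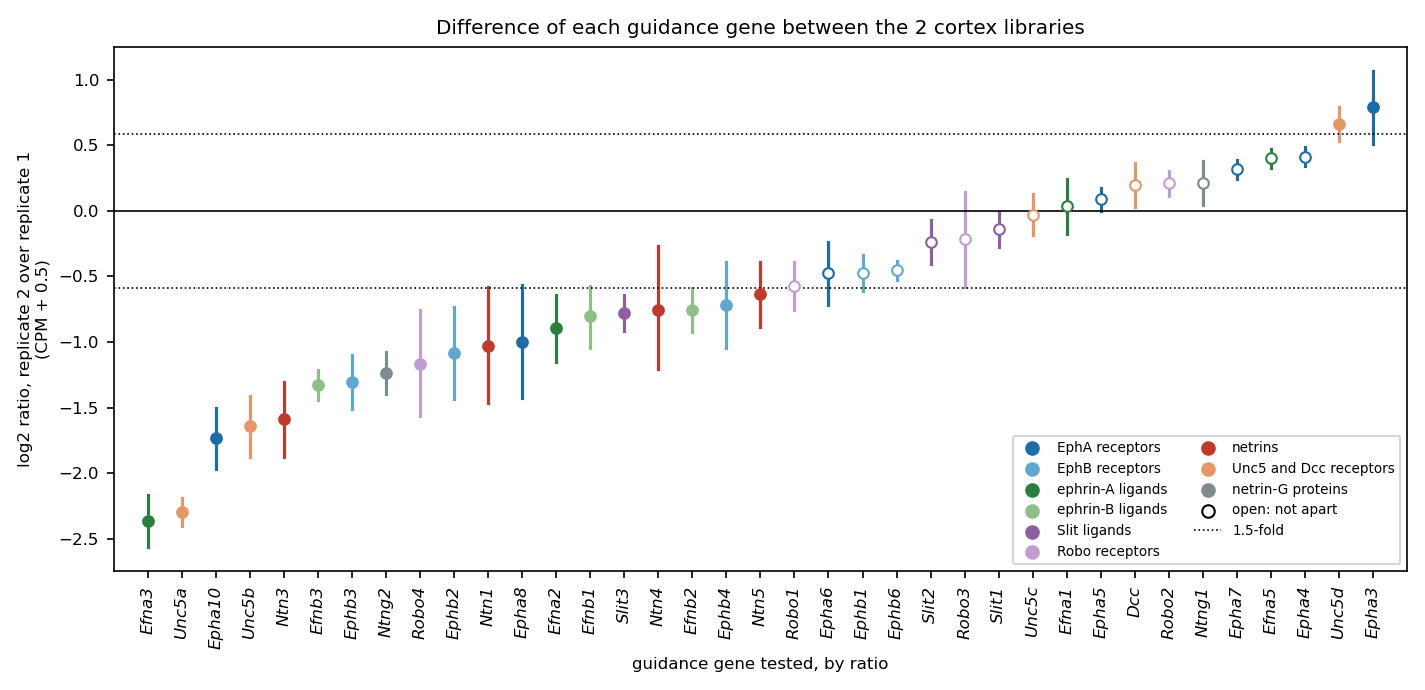
Log2 ratio of replicate 2 over replicate 1 (CPM plus 0.5) for each of the 37 guidance genes tested, in order, with 95% Clopper-Pearson intervals as bars; filled points are apart, open points are not, and dotted lines mark 1.5-fold. Efna3 and Unc5a lie below -2 and only Epha3 and Unc5d are filled above 0.

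The ratio ran with the base composition of the transcripts. The 19 lower members had a GC content of 50.6% to 63.2% (median 58.2%), the 2 higher had 42.6% for Epha3 and 44.98% for Unc5d, and the 16 others had 43.3% to 59.2% (median 48.5%). Across the 37 genes, which share both libraries and are not replicates, Spearman's correlation between GC content and log2 ratio was -0.752 (Pearson's r -0.782), and over 14646 genes Spearman's was -0.307. Guidance genes had a median GC content of 56.9% against 50.8% for all tested genes. Among all genes at 55% to 60% GC the median log2 ratio was -0.20, and at 60% to 65% it was -0.56. The plot of ratio against GC content shows Unc5a, Efna3, Epha10 and Unc5b below the lower quartile of all genes of like GC content, and Ntn5 within the quartiles.

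**Figure D5:**
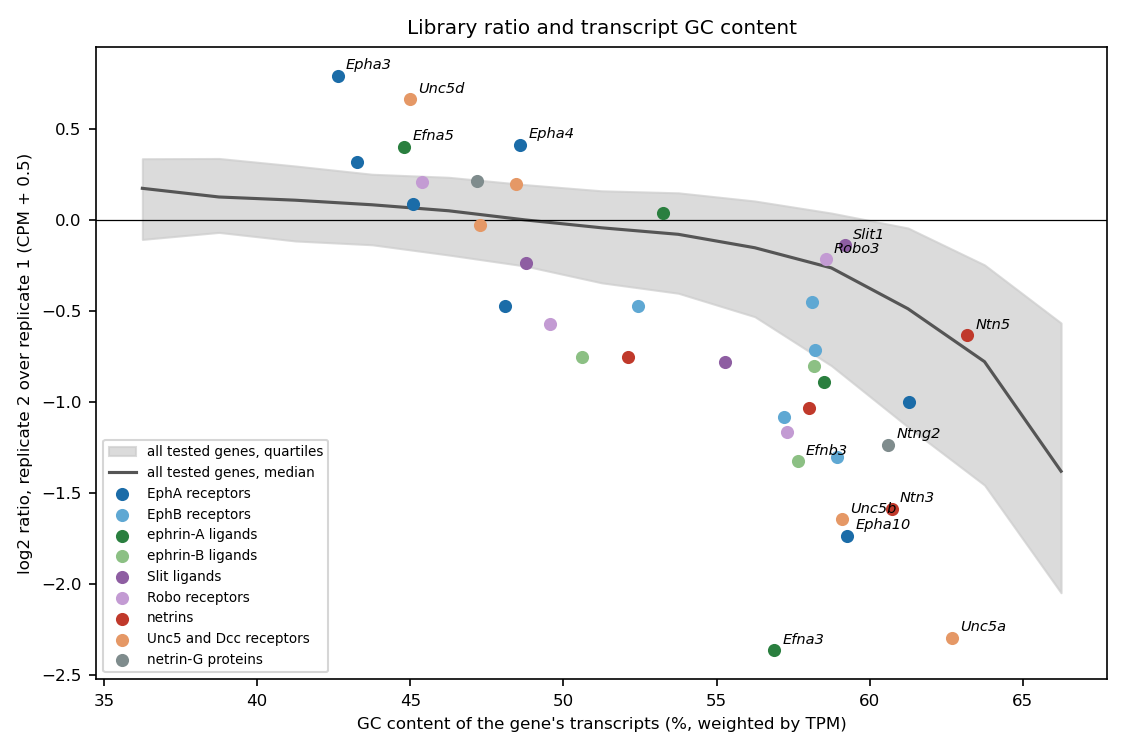
Log2 ratio of replicate 2 over replicate 1 (CPM plus 0.5) against TPM-weighted GC content of the transcripts (percent) for 37 guidance genes (coloured by family), with the median and quartiles of all tested genes in GC bins (line and band). Epha3 and Unc5d lie at low GC content above 0, and Efna3 and Unc5a lie furthest below the band.

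Once trends with GC content and with length, fitted over all genes, were taken out, 17 members were apart, 2 higher and 15 lower, beside 18.6% of all genes. Efnb1 (-0.54), Epha8 (-0.49), Ephb4 (-0.42) and Ntn5 (-0.11) were then no longer called. Unc5a remained at -1.71, Efna3 at -2.21 and Epha10 at -1.38. The second quantification left 20 apart, without Efnb2 at -0.56, beside 19.5% of all genes tested there. Beside these differences the depth of the libraries and the summed levels of projection neuron markers (180 and 116 TPM, with 3 of 6 lower in replicate 2) and of GABAergic markers (152 and 211 TPM, with 1 of 3 lower) also differed, and their part in the result was not tested.

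Base composition differed between members of one family and could differ along a transcript. For the pairs Unc5a and Unc5d, and Efna3 and Efna5, chosen after their ratios were seen as the genes far apart within a family, the first 90 coding bases are shown with G and C in capitals, from GENCODE M21 on mm10.
Unc5a-202: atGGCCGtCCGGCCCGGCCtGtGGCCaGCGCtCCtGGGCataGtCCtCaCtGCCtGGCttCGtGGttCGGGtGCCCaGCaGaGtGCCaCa
Unc5d-201: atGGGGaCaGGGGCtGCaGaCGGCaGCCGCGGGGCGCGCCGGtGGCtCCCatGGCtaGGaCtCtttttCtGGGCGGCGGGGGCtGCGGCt
Efna3-201: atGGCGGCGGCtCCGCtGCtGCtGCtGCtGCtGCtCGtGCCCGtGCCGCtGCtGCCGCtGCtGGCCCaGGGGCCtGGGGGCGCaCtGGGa
Efna5-201: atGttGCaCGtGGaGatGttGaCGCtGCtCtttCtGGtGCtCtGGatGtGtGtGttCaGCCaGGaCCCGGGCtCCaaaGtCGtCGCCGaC
The start of Unc5d held more G and C than that of Unc5a, 73.3% against 68.9%, whereas whole transcripts held 44.3% and 62.5%. For the ephrins the start and the whole ran the same way, 76.7% against 57.8% at the start and 56.1% against 44.8% over the transcript. Unc5a-202 starts within chr13:54949662-54990899 (plus strand, across a junction), Unc5d-201 at chr8:29219249-29219338, Efna3-201 at chr3:89322744-89322833 and Efna5-201 at chr17:62881041-62881130 (all 3 minus strand).

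Genes known to act with the guidance receptors ranged in mean level from 0.07 TPM for Draxin to 1001 TPM for Chn1. Of the Eph-ephrin partners, Chn1, a Rac-inactivating protein downstream of Epha4, was highest at 908 and 1094 TPM, followed by the adaptor Sdcbp at 184 and 251, and Vav2 was lowest at 0.59 and 0.61. There 2 of 14 were lower in replicate 2, Rasa1 at -1.25 and Vav3 at -0.68, and none higher, beside the 20.5% of all genes apart. Rasa1 had 1625 and 378 fragments but 9.54 and 8.08 TPM, which lie closer together. Vav3 had 1.58 and 1.13 TPM. Of the Slit-Robo partners, the Slit-binding proteoglycan Gpc1 (26.9 and 7.55 TPM) and the Robo adaptor Srgap3 (23.6 and 23.5) were highest and Vasp lowest at 1.31 and 0.87. Of these 12, Gpc1 was lower at -1.91 and the kinase Abl2 higher at 0.73.

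Of the 15 netrin partners tested, 6 were lower in replicate 2, beside 17.2% of all genes tested. None was higher, beside 3.22% of all genes. Pitpna, a lipid transfer protein that binds Dcc, had 106 and 19.3 TPM (-1.92), Trim9, a ligase that binds Dcc, had 55.4 and 54.3, and Draxin was lowest at 0.08 and 0.06. The Neo1 ligands Rgmb (-2.02) and Rgma (-1.64) and Neo1 itself, the relative of Dcc (-1.25), were lower in replicate 2.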

How the data were processed

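Each of the 2 libraries had 3 deposited tables on mm10 with GENCODE M21, per the deposited notes: a gene table and a first transcript table with expected counts and TPM, and a second transcript table with estimated counts and TPM. The authors made the expected counts and TPM from alignments to the transcriptome, per the deposited notes, and also deposited the percent of a gene's TPM for each transcript (isoform percent). No aligner or quantifier was named, and the strand setting was not given in the sources used here. Rows that are no gene (26345, with 1.73e-05 and 3.35e-05 percent of fragments) were left out.

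After rounding to whole numbers, the expected counts were compared with an exact binomial test at edgeR TMM sizes (edgeR 4.0.16, R 4.3.3, scipy 1.17.1) over genes with a mean of at least 1 CPM; log2 ratios used CPM plus 0.5, and 95% Clopper-Pearson intervals were put on that scale. They cover counting error only. The test was also run on simulated counts that held counting error only, as the test assumes. That run checks the working of the test and not the calls in these libraries. GC and length trends were removed with lowess (fraction 0.3, statsmodels 0.14.6). Families were summed in TPM. Every guidance gene is named; of each partner list the 2 highest, the lowest and up to 4 with the largest ratio among those apart are named. Members and lists were chosen with earlier results of these data known. Alternatives were other scalings (total count, DESeq2 1.42.0 size factors), filters, pseudocounts, fold thresholds, the second tables and complete coding transcripts. Protein sequences were not used here. Another list of partner genes is not reported here.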

Additional observations from a re-analysis of the deposited data

How the results depend on the processing

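In the second transcript tables the family sums were 78.3 TPM for EphA, 37.8 for EphB, 45.3 for ephrin-A, 16.3 for Slit and 16.2 for Robo, and 285 for all guidance genes. Over complete coding transcripts, an alternative chosen after seeing the data, they were 65.3 for EphA, 42.6 for EphB, 14.8 for Slit, 10.3 for Robo and 11.6 for netrin-G, and 280.5 for all; this follows from the transcripts left out. Levels of 15 of 40 members moved by more than the spread of the libraries in the former and of 11 in the latter. At 5 TPM 14 members were detected, and the share of all genes at that threshold was not computed. A 2-fold threshold left 12 members apart, 0 higher and 12 lower, beside 9.39% of all genes tested. No fold threshold gave 32, with 8 higher, beside 62.6% of all genes tested. At a mean of 5 CPM 29 members were tested, with 1 higher and 13 lower, beside 2.26% and 17.6% of all genes tested. A pseudocount of 2 CPM left 17 apart, without Ephb4, Ntn1, Ntn4 and Ntn5, beside 16.3% of all genes tested. Direction turned for Unc5c (0.10, total-count scaling), and for Robo3 (0.11) and Slit1 (0.22) after removal of GC and length trends; the cause was not tested. With DESeq2 size factors all 37 members kept their direction and call. Neighbours whose ranges were apart numbered 21 in the second tables and 16 over complete coding transcripts. No paired analysis was possible because there was 1 group. The calls between the libraries could not be repeated without a replicate, since each side was 1 library. Depth limits Epha1, Epha2 and Efna4, which were too low to test.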

Other observations

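Several guidance genes lie on the same stretch of a chromosome on mm10, and other genes may lie between them. Efna1, Efna3 and Efna4 follow in this order on chromosome 3, with gaps of 32.8 and 10.4 kb. They had means of 9.32 ± 0.665, 14.7 ± 14.4 and 0.30 ± 0.0849 TPM (SD, n = 2 libraries). Ephb2 and Epha8 lie 93.4 kb apart on chromosome 4. Efna1 and Efna3 also differed in their ratio between the libraries, 0.04 against -2.37 on the log2 scale. Robo4 and Robo3 lie 0.554 kb apart on chromosome 9 and were both low, at 0.98 ± 0.636 and 0.765 ± 0.0919 TPM. Ephb6, at 49.4 ± 3.88 TPM, and Epha1, at 0.06 ± 0.0424, lie 738 kb apart on chromosome 6, and Robo1 and Robo2 lie 846 kb apart on chromosome 16.

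RefSeq promoters (GRCm38.p6, from before to just after the gene start) were matched by symbol for 35 of the 40 members. The letters CG, which read the same on both strands, occurred a median of 21 times in these promoters and 7 times over 27025 promoters of the same length, and 88.6% of the former and 43.9% of the latter held at least 10. The 27025 were all promoters, not matched to the members in gene type or level. The count is a description of the letters in this window.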
